A study of Mus musculus with 4 samples.

Results

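The 10 genes described here serve the defence against oxidants and free metal in mouse small-intestinal epithelium: Nfe2l2 and Keap1, their targets Gclc, Gclm, Prdx1, Txnrd1, Srxn1 and Gpx2, and the metallothionein genes Mt1 and Mt2. They were chosen by name, as every non-control probe whose listed or current gene symbol is one of the 10, which gave 15 of the 41174 probes on the array and 10 of its 27734 genes. Total RNA was measured on 1-colour oligonucleotide arrays with freshly isolated small-bowel cells, in 2 biological replicates from IKKb(EE)IEC mice and 2 from wild-type (WT) littermates, on 1 array each. In the IKKb(EE) protein, which keeps the kinase switched on, serines of the activation loop are replaced by glutamate. The kinase activates the transcription factor NF-kB, and IEC stands for intestinal epithelial cells. In the published mouse line of this name the villin promoter drives the transgene in intestinal epithelium, while the labels used here name no driver. The WT littermates carry no agent or allele that the labels mention, and the sources used here do not give the age, sex or strain of the mice or how many mice a sample pools. The comparison asks how transcripts of these cells differ where the kinase stays active.

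NRF2, the protein of Nfe2l2, is a transcription factor that binds antioxidant response elements together with a small MAF protein, and KEAP1 holds it in the cytoplasm and hands it to a ubiquitin ligase until oxidants or electrophiles modify KEAP1. The targets of NRF2 make glutathione, reduce peroxides and thiols, and conjugate or export reactive compounds. Metallothioneins are small cysteine-rich proteins that bind zinc and copper. Their genes are induced through metal response elements by the zinc-sensing factor MTF1, and they also respond to glucocorticoids and inflammation.

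On the arrays, 40.8% and 41.1% of the spots were well above background in IKKb(EE)IEC, against 34.3% and 36.0% in WT. The IKKb(EE)IEC arrays correlated with each other at 0.994 over the 12444 genes tested and the WT arrays at 0.978, against 0.937 to 0.947 between genotypes. All 11 listed enterocyte markers were well above background on all 4 arrays, so the labelled tissue was present. WT replicate 2 stood apart in hepatocyte markers, of which 4 of the 5 on the array were well above background there and 0 on the other 3 arrays, so each member's fold change is also given without each WT array. Values below are log2 signals of a probe minus the array's 75th percentile, called levels. They rank arrays for 1 probe and do not rank genes. A gene was called higher or lower where limma's adjusted p, with Benjamini-Hochberg adjustment over all 12444 genes, was under 0.05. A log2 fold change is IKKb(EE)IEC minus WT, with its moderated standard error (SE). Since bulk RNA was measured, fewer cells of a type and less RNA per cell cannot be told apart.

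Among the 10 genes, Keap1 and Mt2 were called higher in IKKb(EE)IEC and Gclm and Prdx1 lower, while Nfe2l2, Gclc, Txnrd1, Srxn1, Gpx2 and Mt1 did not pass. Over all genes tested 8.02% were called higher and 7.22% lower, together 15.2%, beside 40% of the 10. Levels of the genotypes did not overlap for 8 of the 10 genes, 5 higher and 3 lower, beside 28.3% of all genes higher, 40.8% lower and 69.1% in either direction. The median log2 fold change was 0.27 over the 10 genes and -0.12 over all genes. The count describes genes that were chosen with earlier results of these data known. Without IKKb(EE)IEC replicate 1 or replicate 2 none of the 10 passed, with adjusted p for Keap1 of 0.151 and 0.171, for Gclm of 0.0943 and 0.160, for Prdx1 of 0.225 and 0.208 and for Mt2 of 0.122 and 0.253, while the fold changes of these 4 genes kept their sign. The arrays lie on 1 slide with the genotypes at separate positions, so position and genotype cannot be told apart.

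**Figure D1:**
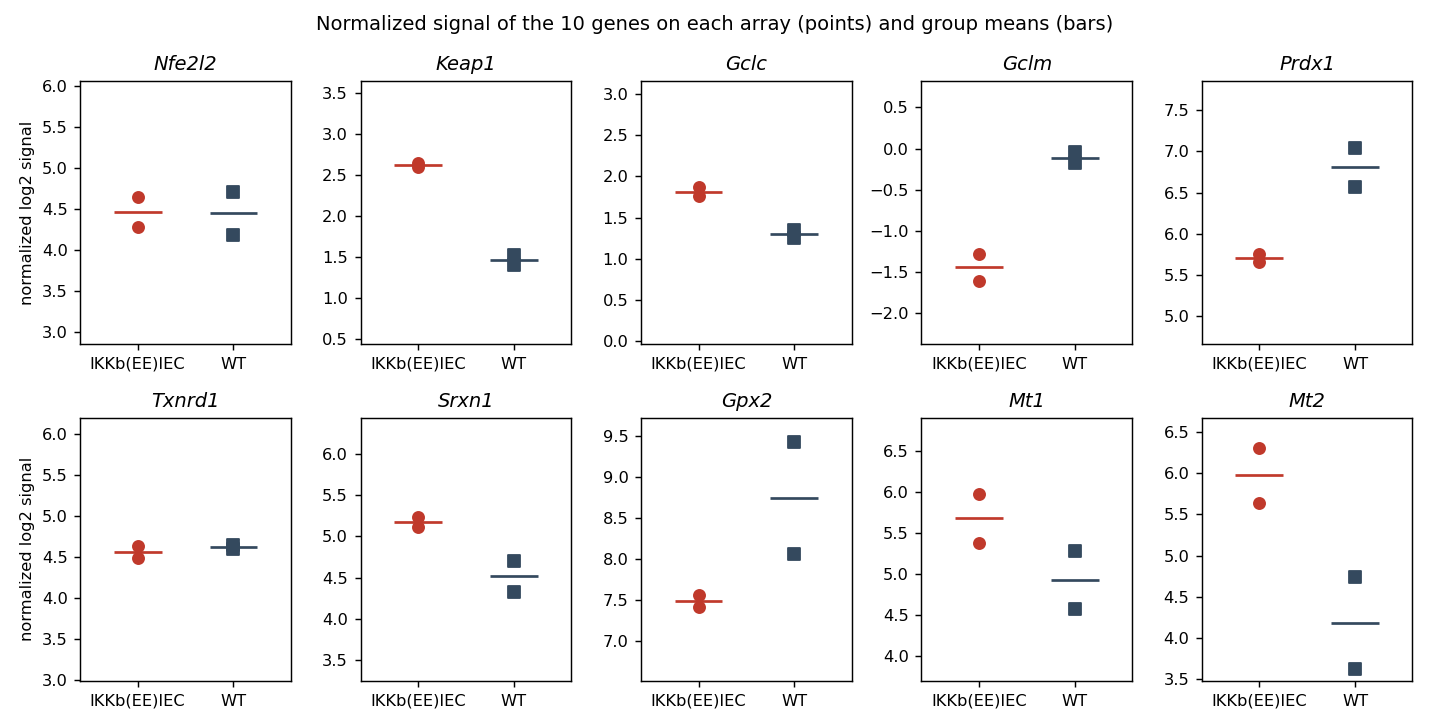
Levels of the 10 genes on each array, as log2 signal minus the 75th percentile of the array, with a panel for each gene, IKKb(EE)IEC arrays on the left of each panel and WT arrays on the right. The arrays of the genotypes interleave for Nfe2l2 and Txnrd1, and the WT arrays lie 1.36 apart for Gpx2.

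The regulator pair split. Keap1 had levels of 2.59 and 2.65 in IKKb(EE)IEC, against 1.40 and 1.52 in WT. The IKKb(EE)IEC arrays both lay above the WT arrays by more than the gap between replicates, and the log2 fold change was 1.16 ± 0.17 (SE, n = 2 each), a 2.23-fold higher signal with an adjusted p of 0.0158. Its 95% interval ran from 0.74 to 1.57, and it was 1.10 without WT replicate 1 and 1.22 without WT replicate 2. The probe lies on the minus strand of chr9:20981250-20981690 in the mm8 coordinates of the files, a span longer than the probe.

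Nfe2l2, which encodes NRF2 itself, had levels of 4.65 and 4.28 in IKKb(EE)IEC, against 4.71 and 4.18 in WT. The arrays interleaved, the log2 fold change was 0.02 ± 0.25 (SE) and the adjusted p was 0.962. The 95% interval ran from -0.61 to 0.65 and holds changes in either direction. The log2 fold change was 0.28 without WT replicate 1 and -0.24 without WT replicate 2, neither past the threshold. A second probe of Nfe2l2 also had a log2 fold change of 0.02, and the remaining probe was well above background on 0 of the 4 arrays and was not tested. The probes lie at chr2:75476553-75476612, chr2:75476699-75476758 and chr2:75492729-75492788. Activity of NRF2 is set largely by protein turnover, which these arrays do not measure.

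In the first step of glutathione synthesis, cysteine and glutamate are joined by glutamate-cysteine ligase. Its catalytic subunit is encoded by Gclc and its modifier subunit, which raises the activity of the enzyme, by Gclm. These subunit genes had fold changes of opposite sign. Gclm had levels of -1.29 and -1.61 in IKKb(EE)IEC, against -0.04 and -0.18 in WT. The arrays did not overlap, and the log2 fold change of -1.33 ± 0.19 (SE) had an adjusted p of 0.0160 and corresponded to a 2.52-fold lower signal. It was a dim probe, and the size of its change depended on the processing: the log2 fold change was -0.25 after normexp background correction, which did not pass, -0.53 after the same correction without spots below their local background, and -0.36 in the authors' value table, whose normalization is not stated, with an adjusted p of 0.0557. Without WT replicate 1 it was -1.26 and without WT replicate 2 -1.40. The Gclm probe spans chr3:122251278-122253913 on the plus strand, which is longer than the probe.

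Gclc had levels of 1.76 and 1.87 in IKKb(EE)IEC, against 1.25 and 1.35 in WT. The arrays were separated with the IKKb(EE)IEC pair on top, but the log2 fold change of 0.51 ± 0.17 (SE) did not pass, with an adjusted p of 0.0888. Its 95% interval ran from 0.09 to 0.93. It was 0.46 without WT replicate 1 and 0.56 without WT replicate 2. The probe lies at chr9:77579173-77579232.

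The promoter window of Gclm is shown because it is the window among the 10 genes in which matches to both elements overlap. It covers chr3:122245307-122245606 on the plus strand in GRCm38.p6, 250 bases before to 50 after the start in RefSeq, and the capitals mark the core of the antioxidant response element, TGACNNNGC, read on the opposite strand at -134 to -126 from the start.
Gclm promoter: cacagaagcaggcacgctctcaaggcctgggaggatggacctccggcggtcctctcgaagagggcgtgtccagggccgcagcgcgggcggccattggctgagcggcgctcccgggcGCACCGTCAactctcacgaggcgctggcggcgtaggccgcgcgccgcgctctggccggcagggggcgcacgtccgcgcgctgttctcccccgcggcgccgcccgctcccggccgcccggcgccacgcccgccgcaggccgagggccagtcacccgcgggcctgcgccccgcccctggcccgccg
A core of the metal response element, TGCGCNC, lies over it on the same opposite strand at -138 to -132, and 2 more lie at -72 to -66 and 28 to 34. Of all 32851 promoter windows in the RefSeq table, 12.4% hold the antioxidant core and 25.7% the metal core, in either the TGCGCNC or the TGCACNC form and on either strand.

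Peroxiredoxin 1, encoded by Prdx1, is an abundant peroxidase that reduces hydrogen peroxide, and thioredoxin and the thioredoxin reductase of Txnrd1 return it to its active form. Prdx1 had levels of 5.66 and 5.76 in IKKb(EE)IEC, against 7.04 and 6.57 in WT. The 2 pairs did not overlap, and the log2 fold change was -1.10 ± 0.22 (SE), a 2.14-fold lower signal with an adjusted p of 0.0338. The WT arrays differed by more than the IKKb(EE)IEC arrays did, and the log2 fold change was -0.87 without WT replicate 1 and -1.34 without WT replicate 2. The call was lost, at the same sign, with quantile normalization (-0.89, adjusted p 0.0651), in the authors' table of values (-0.84, adjusted p 0.0748) and with no filter on dim probes (adjusted p 0.0628). The probe spans chr4:116190905-116191675.

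Txnrd1, the cytosolic thioredoxin reductase, had levels of 4.64 and 4.49 in IKKb(EE)IEC, against 4.65 and 4.59 in WT. The arrays overlapped, the log2 fold change was -0.05 ± 0.17 (SE) with an adjusted p of 0.829, and the 95% interval of -0.47 to 0.36 was narrower than that of Nfe2l2. It was -0.03 without WT replicate 1 and -0.08 without WT replicate 2. The probe lies at chr10:82327284-82327343.

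Sulfiredoxin, encoded by Srxn1, repairs peroxiredoxins that peroxide has over-oxidised. Srxn1 had levels of 5.23 and 5.11 in IKKb(EE)IEC, against 4.70 and 4.33 in WT. The IKKb(EE)IEC arrays were the higher pair, and the log2 fold change of 0.66 ± 0.20 (SE) did not pass, with an adjusted p of 0.0775 and a 95% interval of 0.16 to 1.16. It was 0.84 without WT replicate 1 and 0.47 without WT replicate 2. The gene had 3 probes of the same sign, at chr2:151802624-151802683, chr2:151800937-151800996 and chr2:151800890-151800949, and in a fit over all probes the other probes had log2 fold changes of 0.46 ± 0.18 and 0.55 ± 0.23 (SE), with adjusted p of 0.131 and 0.148.

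The windows of Prdx1 and Srxn1 are shown side by side because each holds 1 match to the antioxidant response element core, again in capitals and on the opposite strand, while the fold changes of these genes had opposite signs. They cover chr4:116685349-116685648 and chr2:152105274-152105573, both on the plus strand in GRCm38.p6.
Prdx1 promoter: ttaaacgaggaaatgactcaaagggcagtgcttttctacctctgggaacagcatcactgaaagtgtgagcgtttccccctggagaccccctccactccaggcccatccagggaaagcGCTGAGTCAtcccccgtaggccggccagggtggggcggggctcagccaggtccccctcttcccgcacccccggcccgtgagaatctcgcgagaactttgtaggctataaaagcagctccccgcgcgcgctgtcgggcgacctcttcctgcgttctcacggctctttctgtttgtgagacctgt
Srxn1 promoter: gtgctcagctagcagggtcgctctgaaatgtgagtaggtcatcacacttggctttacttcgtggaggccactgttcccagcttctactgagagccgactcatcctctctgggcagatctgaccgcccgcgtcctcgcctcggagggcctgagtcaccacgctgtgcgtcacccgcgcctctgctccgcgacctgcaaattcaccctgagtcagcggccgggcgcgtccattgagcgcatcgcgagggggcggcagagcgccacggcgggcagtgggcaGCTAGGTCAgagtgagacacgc
The match lies at -133 to -125 in Prdx1 and downstream of the start, at 29 to 37, in Srxn1. In the Srxn1 window a core of the metal response element, TGCGCNC, lies at -19 to -13 on the opposite strand. Prdx1 also has a match to the kappa B site, the DNA element of NF-kB, at -170 to -161, the 1 such match among the 11 windows of the 9 genes that the table lists, against 4.51% of all windows.

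Gpx2 encodes the gastrointestinal glutathione peroxidase, which reduces hydrogen peroxide with glutathione in the epithelium of the gut. Its levels were 7.42 and 7.57 in IKKb(EE)IEC, against 9.43 and 8.07 in WT. Both IKKb(EE)IEC arrays were lower than both WT arrays, but WT replicate 1 stood well above WT replicate 2, and the log2 fold change of -1.25 ± 0.44 (SE) did not pass, with an adjusted p of 0.103 and a 95% interval of -2.36 to -0.15. The log2 fold change was -0.58 without WT replicate 1 and -1.93 without WT replicate 2, and it passed without either, at adjusted p of 0.0239 and 1.37e-05, where the spread came from the IKKb(EE)IEC pair alone and the lone WT array was assumed to vary like that pair. The probe lies at chr12:77711255-77711314.

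**Figure D2:**
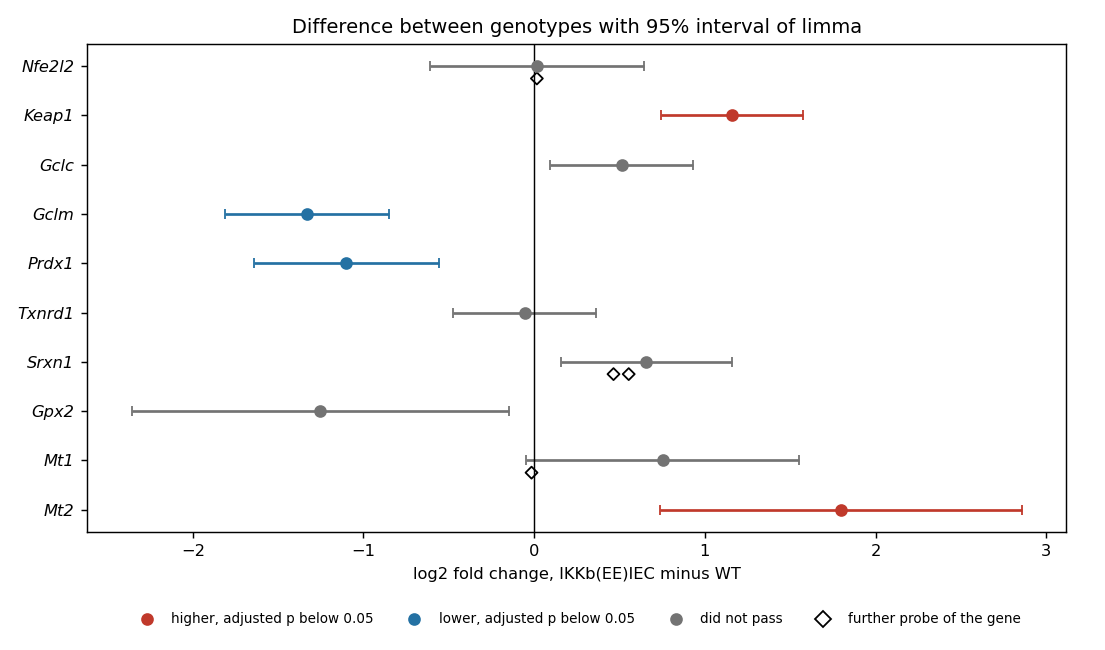
Log2 fold change, IKKb(EE)IEC minus WT, of each probe of the 10 genes that was tested, with 95% intervals as horizontal lines for the probe that represents the gene. Keap1 at 1.16 and Mt2 at 1.80 were called higher and Gclm at -1.33 and Prdx1 at -1.10 lower, and the other probe of Mt1 lies at -0.02.

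Mt2, a metallothionein gene, had the highest fold change of the 10. Its levels were 5.64 and 6.31 in IKKb(EE)IEC, against 3.62 and 4.74 in WT. The IKKb(EE)IEC pair lay above the WT pair, although the WT arrays were 1.12 apart, and the log2 fold change was 1.80 ± 0.42 (SE), a 3.48-fold higher signal with an adjusted p of 0.0473 and a 95% interval of 0.74 to 2.86. It was 1.24 without WT replicate 1 and 2.36 without WT replicate 2. With no filter on dim probes, where 27734 genes shared the adjustment, the adjusted p was 0.0628. The probe lies at chr8:97062600-97062659.

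Mt1, the neighbouring gene with the same function, had levels of 5.38 and 5.97 in IKKb(EE)IEC, against 4.57 and 5.28 in WT. The arrays were separated, with the IKKb(EE)IEC pair higher, and stood in the same order as for Mt2, WT replicate 1 lowest and IKKb(EE)IEC replicate 2 highest. The log2 fold change of 0.75 ± 0.32 (SE) did not pass, with an adjusted p of 0.148 and a 95% interval of -0.05 to 1.55. It was 0.40 without WT replicate 1 and 1.11 without WT replicate 2. The array holds 10 spots of this probe, whose SD within an array, a technical spread, was 0.049 to 0.059. The probe lies at chr8:97069240-97069299. A second, dim probe listed as Mt1, at chr8:97069073-97069132, had levels of -0.64 and -0.50 in IKKb(EE)IEC, against -0.72 and -0.38 in WT, with a log2 fold change of -0.02 ± 0.20 (SE). The probes of Mt1 therefore disagreed, and the mean over both gave a log2 fold change of 0.37. Whether a probe also binds transcripts of the other metallothionein genes was not tested.

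The metallothionein windows are shown with the metal response element cores, TGCGCNC or TGCACNC on either strand, in capitals. They cover chr8:94178839-94179138 for Mt1 and chr8:94172368-94172667 for Mt2, both on the plus strand in GRCm38.p6.
Mt1 promoter: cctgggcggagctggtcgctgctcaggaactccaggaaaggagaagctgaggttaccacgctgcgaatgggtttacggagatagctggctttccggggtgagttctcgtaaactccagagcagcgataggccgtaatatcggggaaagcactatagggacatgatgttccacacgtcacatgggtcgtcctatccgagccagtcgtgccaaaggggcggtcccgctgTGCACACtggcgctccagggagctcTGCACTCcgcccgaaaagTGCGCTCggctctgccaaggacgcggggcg
Mt2 promoter: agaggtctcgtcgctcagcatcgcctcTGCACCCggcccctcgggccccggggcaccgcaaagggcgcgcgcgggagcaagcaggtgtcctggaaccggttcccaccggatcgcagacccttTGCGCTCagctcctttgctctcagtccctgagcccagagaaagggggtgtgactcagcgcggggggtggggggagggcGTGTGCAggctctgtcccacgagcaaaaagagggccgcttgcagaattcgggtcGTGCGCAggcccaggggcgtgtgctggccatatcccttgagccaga
Mt1 has 3 such cores, all between -23 and 27, and Mt2 has 4, at -223 to -217, -128 to -122, -50 to -44 and 5 to 11. Of all windows, 1.97% hold 3 or more and 0.517% hold 4 or more. The Mt2 window also has 1 antioxidant response element core at -79 to -71, and the Mt1 window has none.

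**Figure D3:**
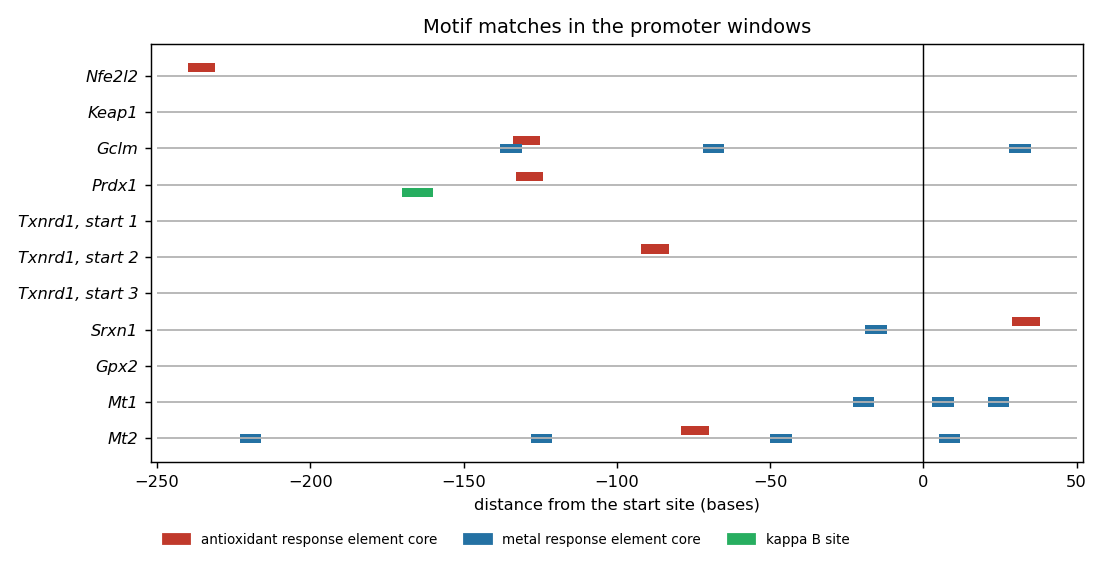
Positions of the motif matches in the 11 RefSeq promoter windows of 9 of the genes, as distance in bases from the transcription start, with a row for each window and a marker for each motif. The metal cores gather in Mt1, Mt2 and Gclm, with 1 more in Srxn1, and the windows of Keap1 and Gpx2 hold no match.

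Of the 9 genes with a window, Nfe2l2 has an antioxidant core at -240 to -232, Txnrd1 has one in 1 of its 3 windows at -92 to -84, and Keap1 and Gpx2 have none of the 3 motifs. Of the called genes with the antioxidant core in the window, Mt2 was higher and Gclm and Prdx1 were lower. These matches describe letters in a short window, and regulatory sequence outside it was not searched.

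For the called gene of each direction with the smallest p, the genes with the most similar levels over the 4 arrays were found after centring each gene on its mean. For Keap1 these were Dusp7, which encodes a phosphatase of MAP kinases, at a Euclidean distance of 0.054 on the log2 scale, Marf1 at 0.087 and Smpd4 at 0.098. For Gclm they were Tcp11l2 at 0.046, Scara5, which encodes a ferritin receptor, at 0.057, and Grik5, which encodes a kainate receptor subunit, at 0.151. With 4 arrays such likeness mostly restates the difference between genotypes.

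The other genes of these pathways were described from 8 lists with 110 members, of which 94 were tested. Of these 94, 7 were called higher, 2 lower and 85 did not pass, so 9.57% were called, beside 15.2% of all genes. Their median log2 fold change was -0.19, beside -0.12 over all genes.

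**Figure D4:**
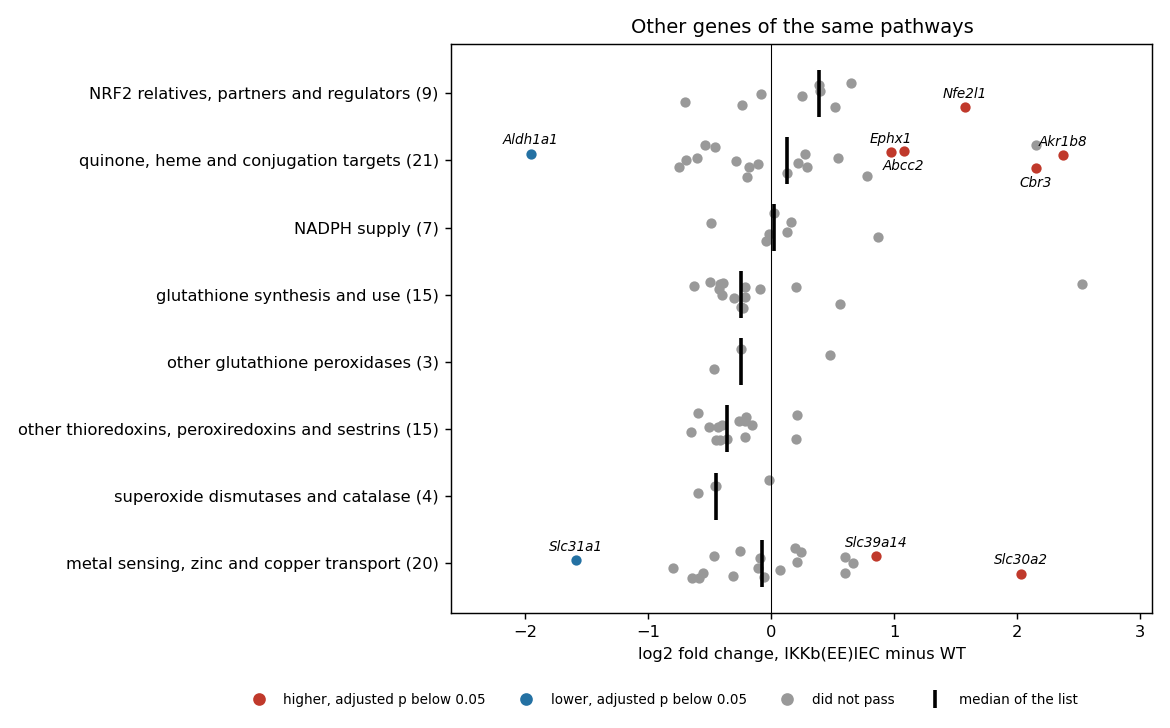
Log2 fold change, IKKb(EE)IEC minus WT, of each tested gene in the 8 pathway lists, with the number tested in parentheses, called genes named and black bars at the median of each list. The called genes lie in 3 lists, and the medians run from -0.45 for superoxide dismutases and catalase to 0.39 for the relatives and partners of NRF2. Ephx1, at its fitted value, was not well above background in WT.

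Of 9 tested relatives, partners and regulators of NRF2, 1 was called higher and 0 lower, with a median of 0.39. It was Nfe2l1, which encodes the related factor NRF1, known for raising proteasome genes, with levels of 3.74 and 3.63 in IKKb(EE)IEC, against 2.24 and 1.98 in WT. The arrays were well apart, and the log2 fold change was 1.58 ± 0.18 (SE), with an adjusted p of 0.00813.

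Of 21 tested quinone, heme and conjugation targets, 4 were called higher and 1 lower, with a median of 0.13 that changed sign with the filter and with the arrays used. Akr1b8, an aldo-keto reductase, had levels of 3.99 and 3.56 in IKKb(EE)IEC, against 0.99 and 1.82 in WT, a log2 fold change of 2.38 ± 0.33 (SE) with an adjusted p of 0.0137. Cbr3, a carbonyl reductase, had levels of 3.01 and 1.81 in IKKb(EE)IEC, against 0.73 and -0.21 in WT. Its arrays were separated but differed widely within each genotype, and the log2 fold change was 2.15 ± 0.49 (SE), with an adjusted p of 0.0440. Abcc2, an exporter of glutathione conjugates, had levels of 2.86 and 2.49 in IKKb(EE)IEC, against 1.80 and 1.40 in WT, with a log2 fold change of 1.08 ± 0.23 (SE) and an adjusted p of 0.0391. Ephx1, microsomal epoxide hydrolase, was too dim on both WT arrays to stand well above background. Its fitted log2 fold change of 0.98 ± 0.19 (SE) had an adjusted p of 0.0344, and after normexp background correction it was 0.23, which did not pass. In the processing reported here the IKKb(EE)IEC mean was 1.34-fold above a floor set for WT. That floor is, on each WT array, the higher of the probe's own level and the lowest level of any probe well above background. The value carries no interval for the spread between arrays. Aldh1a1, a retinaldehyde dehydrogenase, fell: its levels were 3.22 and 3.03 in IKKb(EE)IEC, against 5.0 and 5.17 in WT, a log2 fold change of -1.96 ± 0.18 (SE) with an adjusted p of 0.00435. The targets of NRF2 used most often as readouts, named here after their values were seen, did not pass: Nqo1 had a log2 fold change of 0.13 ± 0.31 and Hmox1 of -0.11 ± 0.18 (SE), and the arrays of both overlapped.

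In 5 lists no gene was called in either direction. These were NADPH supply (7 tested, median 0.02), glutathione synthesis and use (15 tested, median -0.24), the other glutathione peroxidases (3 tested, median -0.25), the other thioredoxins, peroxiredoxins and sestrins (15 tested, median -0.36), and superoxide dismutases and catalase (4 tested, median -0.45). The genes with the smallest p in each, none of which passed, were Idh1 (-0.49 ± 0.17) and Tkt (0.16 ± 0.17) for NADPH, Chac1 (0.68 in the authors' values against 2.53 ± 0.85 as fitted, with a level not well above background on WT replicate 1) and Dpep1 (-0.62 ± 0.21) for glutathione, and Gpx4 (-0.47 ± 0.19) and Gpx1 (0.48 ± 0.25) for the peroxidases, as log2 fold changes with SE. In the thioredoxin list they were Txnrd2, the mitochondrial reductase (-0.65 ± 0.17), and Msra (-0.60 ± 0.18), and in the last list Sod1, the cytosolic superoxide dismutase (-0.60 ± 0.18), and Cat, catalase (-0.46 ± 0.17). The arrays lay fully lower in IKKb(EE)IEC for 12 of the 15 thioredoxin genes and 10 of the 15 glutathione genes, beside 40.8% of all genes. After normexp correction without spots below their local background, a version chosen after seeing the data, the thioredoxin median was -0.07, with 8 genes below 0 and 7 above. The glutathione median was then -0.04, with 9 below and 6 above, and that of all genes -0.01. Under the other alternatives the thioredoxin median ran from -0.44 to -0.17 and the glutathione median from -0.33 to -0.16.

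Of 20 tested genes of metal sensing and zinc and copper transport, 2 were called higher and 1 lower, with a median of -0.07 that changed sign with the scaling. Slc30a2 encodes ZnT2, which loads zinc into secretory vesicles and is described in mouse Paneth cells. Its levels were 3.54 and 3.64 in IKKb(EE)IEC, against 1.71 and 1.42 in WT, a log2 fold change of 2.03 ± 0.19 (SE) with an adjusted p of 0.00442. Slc39a14 encodes ZIP14, a zinc and iron importer known to be induced in inflammation, and had levels of 1.52 and 1.51 in IKKb(EE)IEC, against 0.80 and 0.53 in WT. Its log2 fold change was 0.85 ± 0.18 (SE), with an adjusted p of 0.0385. Slc31a1 encodes the copper importer CTR1 and had levels of 5.77 and 5.66 in IKKb(EE)IEC, against 7.64 and 6.95 in WT, a log2 fold change of -1.58 ± 0.27 (SE) with an adjusted p of 0.0231. Mtf1, the factor that acts on metal response elements, had a log2 fold change of -0.11 ± 0.23 (SE) with overlapping arrays, and is named here after its values were seen.

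Among the 9 called pathway genes, Aldh1a1 and Slc30a2 passed without either IKKb(EE)IEC array. Akr1b8 and Cbr3 did not pass without IKKb(EE)IEC replicate 1, with adjusted p of 0.0775 and 0.181. Nfe2l1, Ephx1, Abcc2, Slc39a14 and Slc31a1 did not pass without either array, and their adjusted p ran from 0.0746 for Nfe2l1 to 0.295 for Slc39a14. Slc31a1 was also lost when the probes of a gene were averaged, and Ephx1 and Cbr3 in the authors' value table. No called pathway gene changed sign under any alternative.

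Markers of other cells were counted beside these genes. Over all genes tested 8.02% were called higher and 7.22% lower, and a count of 0 or 1 in a short list cannot be told from these shares. All 6 tested Paneth cell markers were called lower, with a median log2 fold change of -2.79 and a summed signal of 1450 and 2154 in IKKb(EE)IEC, against 13093 and 11794 in WT, in multiples of the array's 75th percentile. Of 10 tested macrophage and dendritic cell markers 6 were called higher and 0 lower. Of the 10, 5 were well above background on neither WT array and entered the test only through the IKKb(EE)IEC arrays. Adgre1, C1qa, C1qc and Fcgr1, all called higher, were among these 5, and the filter favours such calls. The arrays lay fully higher in IKKb(EE)IEC for 7 of the 10, beside 28.3% of all genes, and fully lower for 1, beside 40.8%. The 1 was C1qb, well above background on all 4 arrays, whose log2 fold change of -0.15 ± 0.17 (SE) did not pass. The summed signal of the list was 31.6 and 25.1 in IKKb(EE)IEC, against 9.0 and 10.5 in WT. Well above background were 10 and 11 of the 11 on the array in IKKb(EE)IEC, against 4 and 4 in WT. Of 7 pancreatic acinar markers on the array 3 were tested, and Clps and Pnliprp1 were called lower. The list had a summed signal of 16.6 and 21.0 in IKKb(EE)IEC, against 441 and 186 in WT. Most of it came from Clps, with levels of 3.94 and 4.33 in IKKb(EE)IEC, against 8.78 and 7.52 in WT. Cela1 had overlapping arrays and a log2 fold change of 0.01. Pnliprp1 was well above background on neither IKKb(EE)IEC array and entered the test only through the WT arrays. Hepatocyte markers, of which 0 were tested, summed to 0.49 and 0.35 in IKKb(EE)IEC, against 1.25 and 10.9 in WT. They stood well above background on WT replicate 2 alone. Enterocyte markers had 1 called higher and 3 lower of 11, with a median of -0.08. Their summed signal was 6854 and 6874 in IKKb(EE)IEC, against 13544 and 14382 in WT, most of it from Fabp1 and Fabp2, both called lower. Goblet cell markers had 1 called lower of 6, with sums of 3242 and 3378 in IKKb(EE)IEC, against 5839 and 6489 in WT. Stromal markers had 1 lower of 4, while 0 of 8 crypt and cycling markers and 0 of 10 T and NK cell markers were called. The part of these cells in the changes of Keap1, Gclm, Prdx1, Mt2 and the called pathway genes was not tested.

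**Figure D5:**
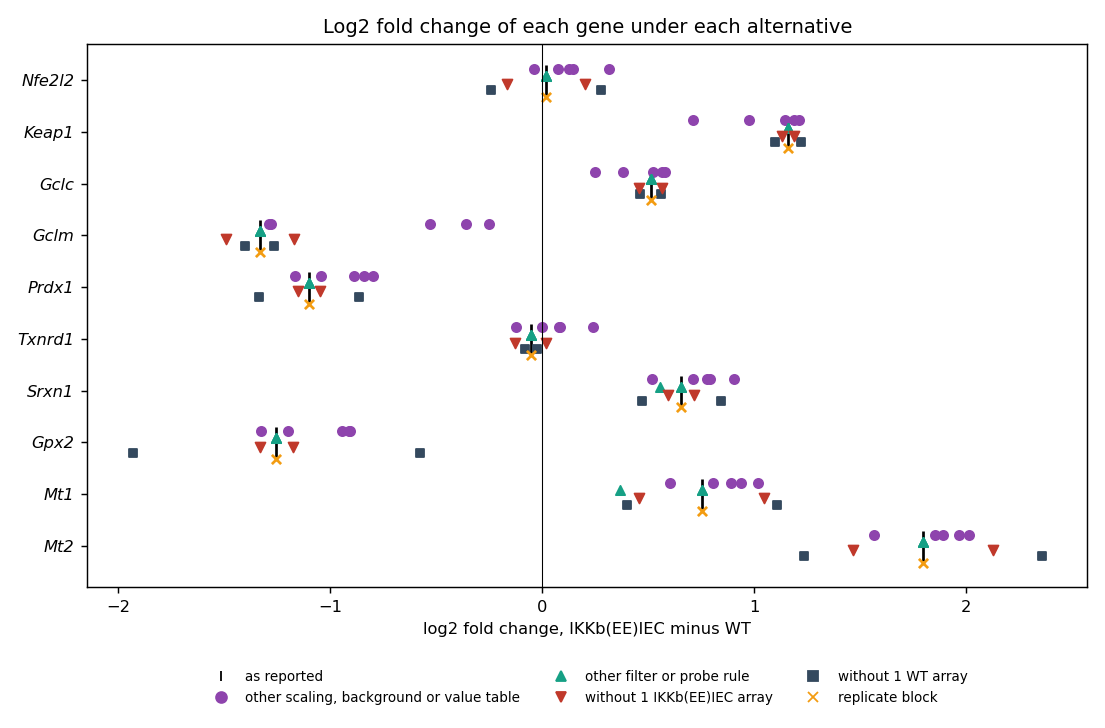
Log2 fold change, IKKb(EE)IEC minus WT, of each of the 10 genes as reported (black bar) and under each of 13 alternatives, grouped by kind. Keap1, Gclc, Srxn1, Mt1 and Mt2 stay above 0 and Gclm, Prdx1 and Gpx2 below 0 in every alternative, while Nfe2l2 and Txnrd1 lie on both sides.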

How the data were processed

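Each of the 4 samples was hybridised to 1 Agilent array as Cy3-labelled cRNA, and groups and replicate numbers come from the sample titles. Agilent Feature Extraction made the deposited intensities, which per the file headers are processed signals after background subtraction and spatial detrending, with no normalization between arrays, and the flags used here (control, outlier, saturated and well above background) are other values that the file headers define. The authors' value table, also deposited as linear intensities with an unstated normalization, held 40913 probes with column medians of 111.5 to 112 and served as an alternative. Arrays give no counts, so their number limits the precision. The depth of signal is the 75th percentile of the processed signal, which was 94.6 and 107.8 in IKKb(EE)IEC and 60.3 and 66.1 in WT.

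Log2 signal was shifted by that percentile, control spots and outliers were left out, and spots of a probe were averaged. None of the members' spots was an outlier or saturated. Probes flagged well above background by 2 or more of the 4 arrays were kept (16406 probes), and the probe with the highest mean represented a gene (12444 genes). Symbols follow RefSeq accessions for 24375 probes, the name given to a like-named probe for 4647, and the file for 12152. Genotypes were compared over all genes in limma 3.58.1 (lmFit and eBayes, two-sided, under R 4.3.3), with Benjamini-Hochberg adjustment. With 2 against 2 arrays an exact permutation test cannot go below a p of 0.333. Coordinates of probes are those of the files (mm8); promoter windows, for 9 of the 10 genes, are RefSeq's (GRCm38.p6). Alternatives changed the scaling, background correction, value table, filter, probe rule, replicate block and the arrays used.

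The members and lists were chosen with earlier results of these data known. The text names every member, from each pathway list up to 5 called genes with the largest change or, where none was called, the 2 with the smallest p, and the 3 genes nearest in pattern to the member with the smallest p in each direction.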

Additional observations from a re-analysis of the deposited data

How the results depend on the processing

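With a background correction by normexp, limma called 0 genes higher and 0 lower (92 and 120 at an unadjusted p below 0.05). So 0 members and 0 pathway genes were called in either direction. Spots whose local background exceeded their signal numbered 3 or 4 on an array that held any. The version without those spots, chosen after seeing the data, called 1397 genes higher and 544 lower, 4 members higher and 2 lower, and 12 pathway genes higher and 2 lower, against 998 and 898 genes, 2 and 2 members and 7 and 2 pathway genes as reported. It added Gclc and Srxn1 to the members called higher. With no filter on dim probes 504 genes were called higher and 346 lower, 1 member in each direction, and 3 pathway genes higher and 1 lower, over 27734 genes in place of 12444. Quantile normalization called 1 member lower, the authors' values 0 members and 6 pathway genes lower, and a filter on all 4 arrays 5 pathway genes lower. Genes called higher made up 52.6% of calls as reported, 63.2% after a shift by the array median, 72.0% after the second normexp version and 40.0% under the filter on all 4 arrays. Shifting by the median gave every gene the same SE and added Gpx2, at an adjusted p of 0.00251. The median of all genes, -0.12 as reported, was -0.01 under the second normexp version, -0.17 under the filter on all 4 arrays and -0.45 with no filter. Leaving out 1 array at a time gave 165 to 2633 genes higher and 83 to 3541 lower, 0 to 4 members higher and 0 to 3 lower, and 1 to 20 pathway genes higher and 1 to 22 lower; fits without a WT array took the spread from the IKKb(EE)IEC pair and called more, and those without an IKKb(EE)IEC array took it from the WT pair and called fewer. The log2 fold change of Nfe2l2 reversed to -0.038 under normexp, and ran from -0.24 to 0.28 without 1 array. That of Txnrd1 reversed to 0.00025 after the median shift, 0.078 with quantile normalization, 0.085 in the authors' table and 0.24 under the second normexp version, and ran from -0.13 to 0.018 without 1 array. Replicate numbers are shared by the genotypes but the labels do not pair the samples (correlation of deviations 0.108 over genes). With the replicate block 911 genes were called higher and 588 lower, and 2 members in each direction; the block removed the call of Slc39a14. A block for the slide was not run, since there was 1 slide. Where no cause is given, the cause was not tested.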

Other observations

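The WT arrays were far apart for some genes of these pathways, named here after their values were seen. Me1, which encodes malic enzyme, a source of NADPH, had levels of 1.75 and 1.31 in IKKb(EE)IEC, against 2.58 and -1.25 in WT, so that its log2 fold change of 0.87 had an SE of 1.17. The level on WT replicate 2 was not well above background. Chac1, which encodes an enzyme that breaks down glutathione, had levels of 1.12 and 0.57 in IKKb(EE)IEC, against -3.04 and -0.33 in WT, of which the level on WT replicate 1 was not well above background. Gsta3, a glutathione S-transferase, had levels of 4.04 and 3.28 in IKKb(EE)IEC, against 0.53 and 2.49 in WT. Neither Chac1 nor Gsta3 passed, with adjusted p of 0.0928 and 0.0773. Their log2 fold changes were 2.53 and 2.15 as fitted, and 0.68 and 1.78 in the authors' value table. The WT array with the higher level differed between these genes: it was replicate 1 for Me1 and Gpx2, and replicate 2 for Chac1, Gsta3, Mt1 and Mt2.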
